A study of Mus musculus with 11 samples.

Results

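The genes described here are 9 members of the complement system: C1qa, C1qb, C1qc, C3, C4b, Cfb, Cfp, C3ar1 and C5ar1. They were taken by gene symbol, and all 9 were found among the 23282 entries listed for each library. The libraries come from mouse colon macrophages, which the labels describe as sorted to be positive for CD45, CD11b, MHCII and CD64 and negative for Ly6G and Ly6C. Mice were either wild type, WT below, or of the strain Csf1r-EP4-/-, called KO below. EP4 is the prostaglandin E2 receptor encoded by Ptger4, and Csf1r is a gene of the macrophage lineage. The labels do not describe the allele, say which cells carry the deletion, or give the age or sex of the mice. They also do not say whether a library holds 1 mouse or a pool. Mice of both strains received 2.5% dextran sodium sulphate (DSS), an agent that injures the colon lining, in their water over 5 days. Libraries are titled day 0 or day 39, and the same DSS protocol text is attached to all of them. There were 3 libraries in KO day 0, 2 in WT day 0, 3 in KO day 39 and 3 in WT day 39. Nothing in the labels says that libraries of a group came from separate animals, so p-values measure the spread between libraries, which may be technical.

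Complement is a set of proteins that tag microbes and dying cells and draw in leukocytes. C1q, built of the A, B and C chains encoded by C1qa, C1qb and C1qc, starts the classical pathway, which cleaves C4 and then C3. Factor B (Cfb) and properdin (Cfp) belong to the alternative pathway, which amplifies the cleavage of C3. The fragments C3a and C5a signal through the receptors encoded by C3ar1 and C5ar1. Tissue macrophages are a main source of C1q, whereas C3, C4 and factor B are also made by epithelial and stromal cells.

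Library totals ran from 4003299 to 14207919 counts, and the deepest libraries were in KO day 0. Levels are given as counts or as CPM, counts per 1000000 TMM-scaled counts of tested genes. Because reads of this 3′ kit lie near transcript ends, a level is read between libraries. Ranks of genes by CPM and shares among the C1q genes below describe counted reads. Ptger4, the gene named in the strain, had 1350, 0 and 890 counts in the KO libraries of day 0 and 0 in both WT ones. By day 39 its counts were 1, 8 and 4501 under the KO label and 1481, 152 and 7286 under the WT label. Ptger4 was thus well counted in 3 KO libraries (day 0 replicates 1 and 3, day 39 replicate 3), which goes against the label if the counted 3′ end is part of the deletion. The labels do not say whether it is, so these counts do not check the genotype, and KO and WT below mean the labels alone. Of 12 macrophage markers, 11 had more than 3 counts in some library, between 8 and 11 of them in any 1 library, while Mertk had none. The macrophage genes H2-Ab1 and Csf1r had at least 12803 and 1329 counts in every library. Of the genes for the sorted proteins, Ptprc (CD45), Itgam (CD11b) and Fcgr1 (CD64) each had 3 or fewer counts in some libraries. Markers of other cells were also present: 7 stromal genes summed to between 3640 and 23568 CPM and 5 skeletal muscle genes to between 909 and 14325 CPM. Markers of B cells had no more than 3 counts in any library.

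The C1q genes had more than 3 counts in every library, unlike the 6 other members. The lowest library had 2605 counts of C1qa, 2606 of C1qb and 2549 of C1qc. They belonged to the 100 genes with at least 1000 counts in all 11 libraries. Each of the 6 other members had 3 or fewer counts in at least 2 libraries, and C5ar1 did in 6. Their edgeR biological coefficients of variation, 1.45 for C1qa, 1.50 for C1qb and 1.47 for C1qc, lay within the lowest 0.730% of the 6987 tested genes, and the common value over those genes was 2.48.

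The genes of the A, B and C chains are neighbours in the RefSeq annotation, in the order C1qb, C1qc, C1qa. The 250 bases upstream of the annotated starts of C1qb and C1qc are shown because these 2 genes are counted in every library and lie side by side. They are from RefSeq, GRCm38.p6, minus strand, at chr4:136886201-136886450 and chr4:136892915-136893164, and are written 5′ to 3′. The promoter table matched 6 of the 9 members; C1qa, C4b and Cfb were not matched. Capitals mark AGGAAGT or its reverse complement ACTTCCT, an ETS-type motif of the kind bound by PU.1, a factor of macrophages.
C1qb: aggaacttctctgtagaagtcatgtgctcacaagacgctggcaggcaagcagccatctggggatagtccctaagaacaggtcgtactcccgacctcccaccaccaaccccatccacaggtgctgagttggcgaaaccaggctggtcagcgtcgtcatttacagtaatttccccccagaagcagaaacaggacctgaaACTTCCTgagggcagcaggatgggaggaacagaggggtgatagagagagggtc
C1qc: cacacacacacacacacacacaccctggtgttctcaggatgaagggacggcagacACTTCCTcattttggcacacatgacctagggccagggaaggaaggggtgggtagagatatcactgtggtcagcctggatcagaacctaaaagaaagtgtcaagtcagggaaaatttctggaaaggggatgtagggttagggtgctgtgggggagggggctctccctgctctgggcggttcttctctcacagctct
Each window held 1 match, on the strand opposite to the gene. Searched on both strands, the motif was in 7.69% of all 32851 promoter windows of this length. Of the 6 members matched, C1qb, C1qc and C5ar1 held it, and C3, C3ar1 and Cfp did not. A match describes letters in a window and not a site of binding.

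At day 0 the KO libraries had 7277, 847 and 984 CPM of C1qa and the WT ones 2452 and 1772. At day 39 the KO libraries had 1324, 2194 and 751 CPM and the WT ones 2317, 1622 and 2998. Replicate 1 of KO day 0 stood apart, with 45286 C1qa counts, and through it KO day 0 overlapped both WT groups. The 2 other libraries of KO day 0 lay below every WT library and within the range of KO day 39. From highest to lowest, KO day 0 averaged 3036 CPM ± 3674 (SD, n = 3), WT day 39 2312 ± 688 (n = 3), WT day 0 2112 ± 481 (n = 2) and KO day 39 1423 ± 727 (n = 3). No neighbours in that order differed beyond their spread. For KO libraries at day 39 against day 0, the fitted log2 difference of C1qa was -1.09 ± 0.82 (SE), and edgeR gave an adjusted p of 0.457. That direction rested on replicate 1 of KO day 0, without which the log2 difference was 0.65 (edgeR adjusted p = 0.802). Marker sums set this library apart as well, at 17364 CPM for macrophage, 4707 for stromal and 1634 for muscle genes, against 6330 and 4436, 23568 and 23053, and 14325 and 13044 in replicates 2 and 3. Their part in the C1qa values was not tested. The genotype difference at day 0 likewise turned, from 0.52 ± 0.92 (SE; edgeR adjusted p = 0.874) to -1.21 without that library (edgeR adjusted p = 0.495).

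C1qb, the gene of the B chain, ran from 485 to 2160 CPM, the smallest ratio of highest to lowest library among the members (4.46). Its day 0 levels were 1858, 683 and 485 CPM under the KO label and 1738 and 1465 under the WT label. Its day 39 levels were 977, 1244 and 751 CPM under the KO label and 1734, 979 and 2160 under the WT label. WT day 39 averaged 1624 CPM ± 598 (SD, n = 3), WT day 0 1601 ± 193 (n = 2), KO day 0 1008 ± 742 (n = 3) and KO day 39 990 ± 247 (n = 3). Libraries labelled WT thus had the higher mean on both days, but the groups overlapped on both, and the edgeR adjusted p was 0.873 at day 0 and 0.924 at day 39. The fits left wide room for change, with a standard error of 0.79 on the log2 scale for day 39 against day 0, so a stable level was not shown.

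C1qc encodes the C chain, and at day 39 its mean was higher under the KO label, whereas those of C1qa and C1qb were higher under the WT label. No gene of the 3 passed the test there, and C1qc was not tested against the others. On day 0 it stood at 2671, 873 and 657 CPM in KO libraries and at 2885 and 1362 in WT libraries. On day 39 it stood at 1689, 2549 and 3304 CPM in KO libraries and at 774, 1400 and 944 in WT libraries. At day 39 every library labelled KO was above every library labelled WT, with means of 2514 CPM ± 808 (SD, n = 3) and 1039 ± 324 (n = 3), a 2.42-fold ratio. Of tested genes, 3.41% were higher in KO without overlap in this comparison. The log2 fold change was 1.27 ± 0.92 (SE), and the edgeR adjusted p was 0.526, so the difference did not pass. At day 0 the order of means was the other way, 1400 CPM ± 1106 (n = 3) against 2123 ± 1077 (n = 2), with overlap. The test of the difference between the days gave an edgeR adjusted p of 0.503. The 2 genes that edgeR called between the labels at day 39 were the skeletal muscle markers Tnnc2 and Pvalb, at 2.21 and 0.901 CPM for KO and 896 and 652 for WT (adjusted p = 0.00953 and 0.0144). The sum of the 5 muscle markers overlapped, at 980 to 2196 CPM for KO and 909 to 8286 for WT, and the part of muscle RNA in the C1qc difference was not tested.

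**Figure D1:**
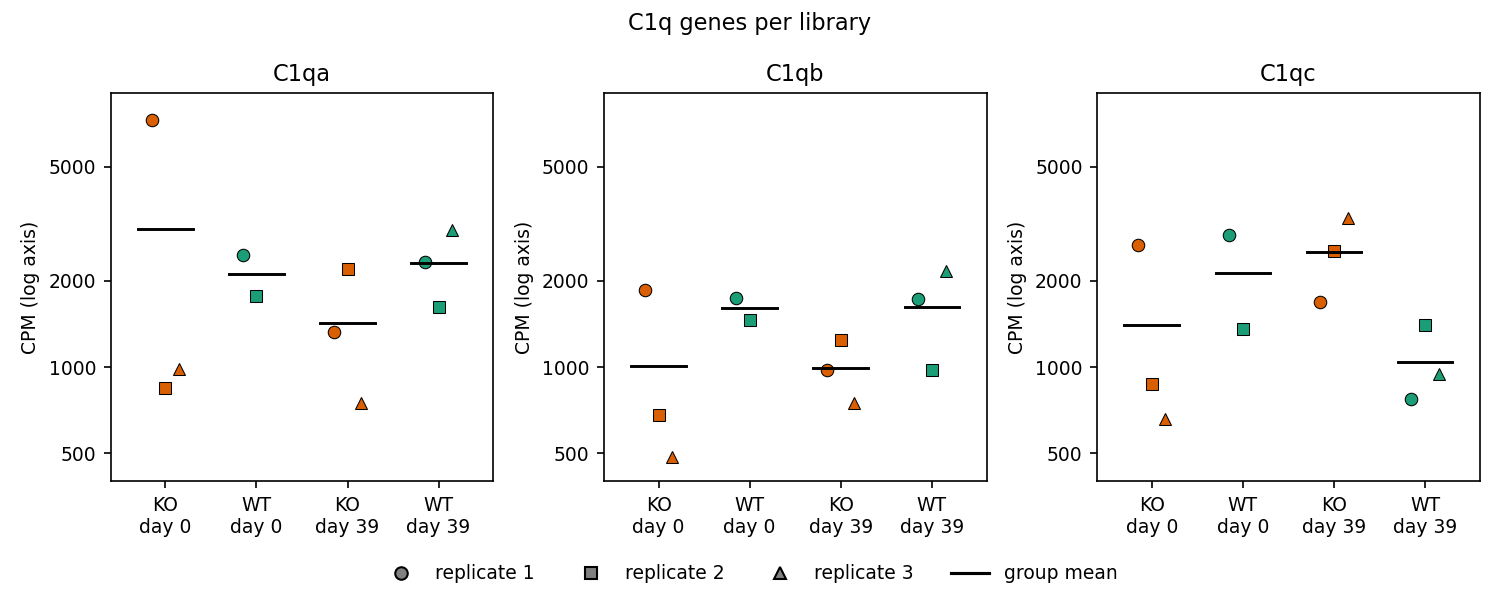
CPM of C1qa, C1qb and C1qc (log axis) in each of the 11 libraries, by genotype label and day, with the group mean as a line; orange marks libraries labelled KO and green those labelled WT. C1qa of KO day 0 replicate 1 stands alone at 7277 CPM, and at day 39 the KO and WT libraries do not overlap for C1qc.

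Counted reads of the 3 chain genes were split differently from library to library, and this split was not tested. Of the summed C1q counts of a library, C1qa made up between 15.6% and 61.6%, C1qb between 15.6% and 35.9%, and C1qc between 15.5% and 68.8%. At day 39 the share of C1qc was 51.2% ± 15.2 (SD, n = 3) in libraries labelled KO, with a lowest value of 42.3%, and 22.2% ± 11.1 (n = 3) in those labelled WT, with a highest value of 35.0%. At day 0 the means were in the other order, 30.0% ± 6.91 (n = 3) for KO and 35.2% ± 7.89 (n = 2) for WT, and the libraries overlapped. Across the 11 libraries, C1qa and C1qb were ordered alike, with a Spearman rho of 0.945. C1qc was ordered differently, with a rho of 0.118 to C1qa and 0.227 to C1qb. All values of a library share its depth and its scaling, so these correlations are descriptions. The summed C1q level averaged 5445 CPM ± 5510 (SD, n = 3) for KO and 5837 ± 1751 (n = 2) for WT at day 0, and 4927 ± 1004 (n = 3) for KO and 4976 ± 1058 (n = 3) for WT at day 39.

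**Figure D2:**
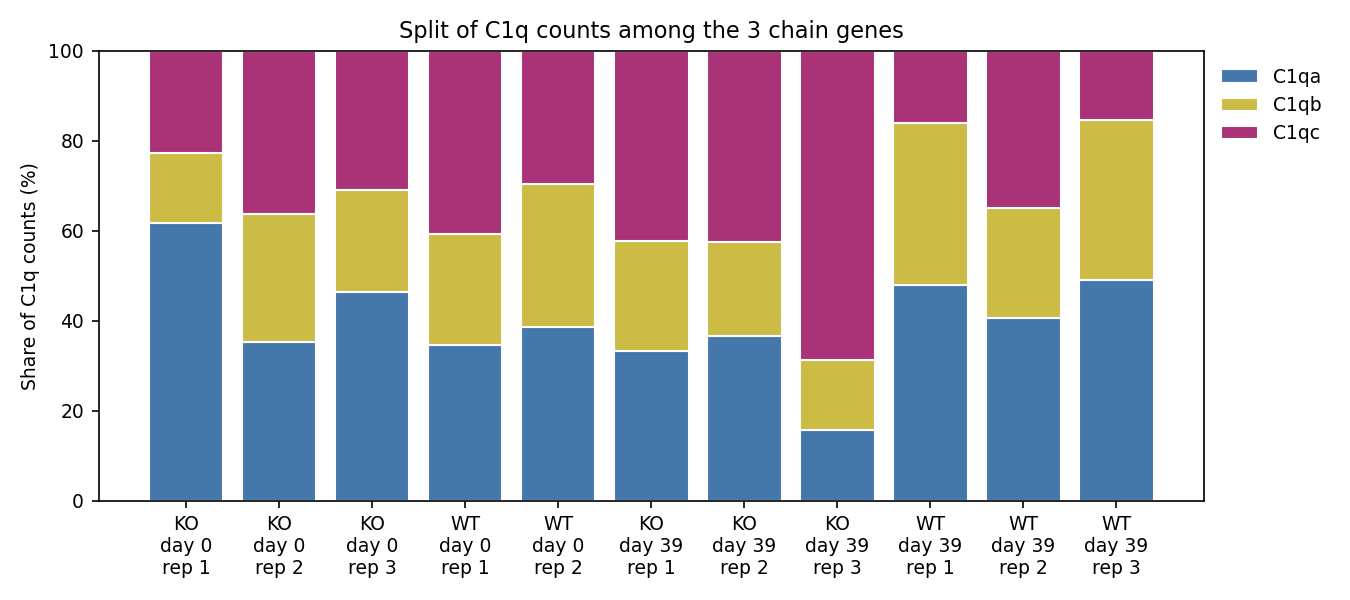
Share of the summed C1q counts (%) taken by C1qa, C1qb and C1qc in each library, as stacked bars that add to 100. C1qc takes 42.3% or more in the libraries labelled KO day 39 and 35.0% or less in those labelled WT day 39, while C1qa peaks at 61.6% in KO day 0 replicate 1.

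Among 2088 other tested genes with a mean of at least 100 CPM, the 5 whose order across the 11 libraries was most like that of the C1q genes were Tmx1, Ctsb, Tubb6, H2-Aa and Ctss. Their mean rho to the 3 chain genes was 0.716, 0.700, 0.691, 0.688 and 0.673. Ctsb and Ctss encode the lysosomal proteases cathepsin B and cathepsin S, and H2-Aa encodes an MHC class II chain. Like the C1q genes, these 3 were well counted, with at least 2321, 2238 and 26244 counts in every library. Tmx1 and Tubb6 had 0 counts in at least 1 library. All 5 were closer to C1qa and C1qb than to C1qc, to which their rho was between 0.294 and 0.545. Since C1qa and C1qb were ordered alike, choosing by the mean rho favours genes close to both.

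C3, the protein on which all complement pathways converge, was the member that edgeR called higher at day 39 in the main fit. That call was kept in 8 of 16 alternatives. The day 0 libraries had 0, 1102 and 1681 C3 counts under the KO label, or 0, 142 and 110 CPM, and 0 in both WT libraries. The day 39 libraries had 3337, 2793 and 7271 counts under the KO label, or 863, 552 and 2095 CPM, and 761, 1890 and 2342 under the WT label, or 231, 348 and 513 CPM. All 6 libraries of day 39 exceeded all 5 of day 0, and 3 of the 5 day 0 libraries had no C3 count. Such a lack of overlap, higher at day 39, was found in 1.6% of tested genes. The mean was 767 CPM ± 685 (SD, n = 6) at day 39 and 50.3 ± 69.8 (n = 5) at day 0, a 15.2-fold ratio. Averaged over genotype labels, C3 passed the edgeR test (adjusted p = 0.0310 over all genes). The fitted log2 difference of that contrast, 8.93 ± 2.17 (SE), is far larger than the ratio of the pooled means, because it averages in a WT difference taken against a group at 0, and its size depends on the prior count. It was the 1 member of 9 called in this comparison, in which 0.301% of tested genes were called and 0.258% were called higher at day 39. At an unadjusted p under 0.05, C3 was again the 1 member, against 19.2% of tested genes, and DESeq2 called C3 and Cfb, against 17.4%. In a pool of cells, more cells that make C3 and more C3 RNA per cell cannot be told apart.

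Within each genotype label C3 was higher at day 39 without overlap, although neither difference passed by itself. In libraries labelled KO the mean went from 83.9 CPM ± 74.4 (SD, n = 3) to 1170 ± 816 (n = 3), a 13.9-fold ratio (log2 3.80 ± 2.05 SE in edgeR, adjusted p = 0.289). In libraries labelled WT it went from a count of 0 to 364 CPM ± 142 (n = 3), at least 586-fold above the floor of 3 counts per library (edgeR adjusted p = 0.414). Such floors, here and below, cover counting error only. Within day 39, the libraries labelled KO were all above those labelled WT, a 3.22-fold ratio of means that did not pass (log2 1.69 ± 1.88 SE in edgeR, adjusted p = 0.812). At day 0 the KO mean was at least 135-fold above the WT floor, with overlap at 0 (edgeR adjusted p = 0.381). The test of the difference between the time courses gave an edgeR adjusted p of 0.324. The call for day 39 against day 0 was lost without WT day 0 replicate 1 (edgeR adjusted p = 0.426), WT day 0 replicate 2 (0.592), KO day 39 replicate 1 (0.0761), replicate 2 (0.0502) or replicate 3 (0.308). It was also lost with scaling by library size only (0.0603), with no filter on low counts (0.180) and with a block for replicate number. In all, 8 of 16 alternatives lost it, and leaving out a WT day 0 library leaves that group 1 library, which is then assumed to vary like the others. Mir6978 overlaps C3 in RefSeq, so the C3 count is uncertain to that extent.

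Epithelial and stromal cells, which can make C3 and which a sort for CD45, CD11b and CD64 should remove, also left marker counts that varied between the days. The 12 epithelial markers, all with more than 3 counts in some library, summed to between 74.7 and 1776 CPM at day 0 and between 1566 and 8929 CPM at day 39. Between 3 and 6 of the 12 had more than 3 counts in a day 0 library, and between 6 and 11 did in a day 39 library. The 7 stromal markers summed to between 3640 and 23568 CPM at day 0 and between 6018 and 11624 CPM at day 39, with means of 14516 and 8380 CPM. The 12 macrophage markers summed to between 4436 and 17364 CPM at day 0 and between 5496 and 12388 CPM at day 39. The part of epithelial or stromal RNA in the C3 result was not tested.

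**Figure D3:**
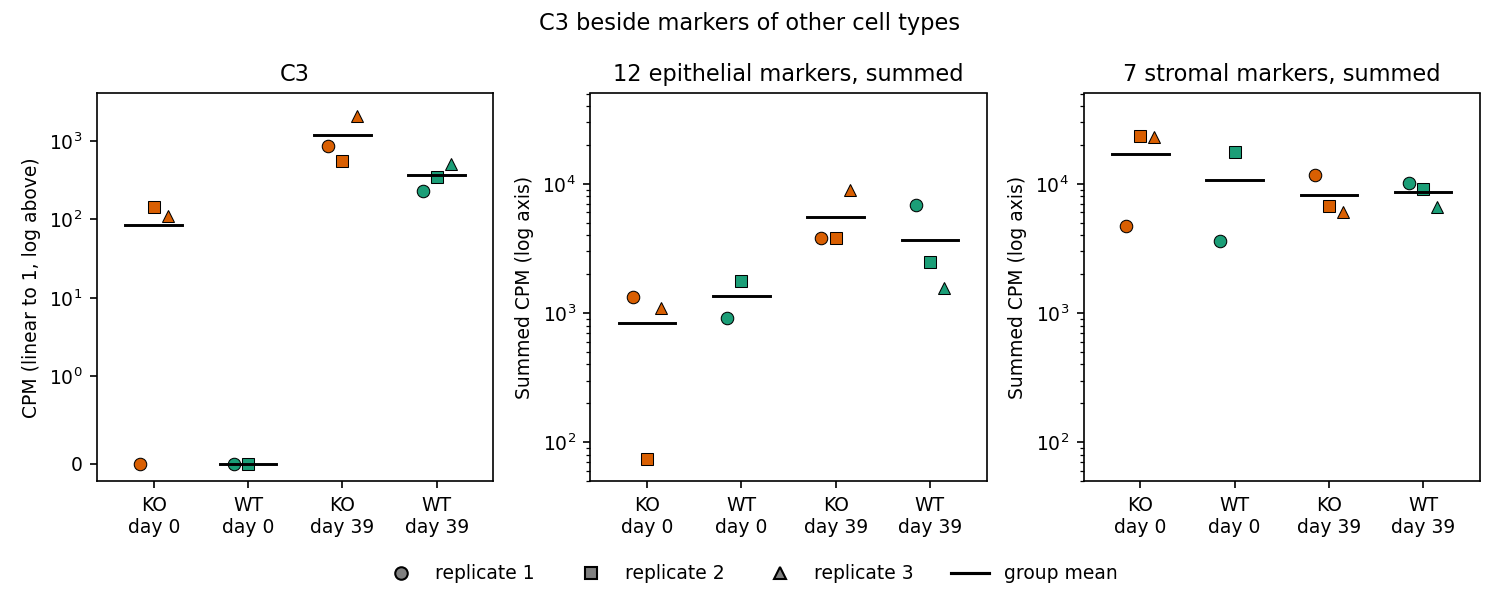
CPM of C3 (linear to 1, log above) beside the summed CPM of 12 epithelial and of 7 stromal marker genes (log axes) in each library, with the group mean as a line. All 6 day 39 libraries have 231 CPM or more of C3, above the day 0 maximum of 142, while the epithelial sum has a higher day 39 range with some overlap and the stromal sum does not.

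The sequence upstream of C3 is shown because C3 is the member that passed. It is the RefSeq window of GRCm38.p6 on the minus strand, chr17:57228137-57228386. Capitals mark TTGCGNAA, a C/EBP-type motif searched on both strands (TTNCGCAA on the other).
C3: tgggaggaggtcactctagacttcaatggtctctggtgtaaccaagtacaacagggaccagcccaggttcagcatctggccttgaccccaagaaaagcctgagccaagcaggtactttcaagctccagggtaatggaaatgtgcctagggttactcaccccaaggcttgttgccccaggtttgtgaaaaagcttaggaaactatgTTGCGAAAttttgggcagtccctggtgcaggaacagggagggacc
The match lies 45 to 38 bases before the annotated start. This motif was in 0.670% of the 32851 windows, in C3 and in none of the 5 other members matched. Like the ETS-type motif, it was chosen with earlier results of these data or the sequences known, so these shares are descriptions. C3 had no match to the ETS-type motif, which says only that those letters are not in this window.

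C4b encodes C4, the substrate of the activated C1 complex. The KO libraries had 1, 1840 and 4394 C4b counts at day 0 and 1747, 272 and 4 at day 39, and the WT libraries had 0 and 2 at day 0 and 1245, 0 and 1168 at day 39. High and near-empty libraries stood side by side in every group except WT day 0, in which both were at or under 3 counts. KO averaged 175 CPM ± 153 (SD, n = 3) at day 0 and 169 ± 246 (n = 3) at day 39, and WT averaged 0.236 ± 0.333 (n = 2) and 211 ± 193 (n = 3). WT day 39 was at least 340-fold above the WT day 0 floor, with overlap (edgeR adjusted p = 0.414). C4a, a near-identical copy, had 39 and 1616 counts in replicates 2 and 3 of KO day 0, 247 in replicate 2 of KO day 39 and 1191 in replicate 3 of WT day 39, and 8 or fewer elsewhere. How reads shared by both copies were assigned is not stated, so the C4b values are uncertain.

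Factor B, the protease precursor of the alternative pathway, was spread in a similar way. Under the KO label its day 0 counts were 5, 1655 and 893, and its day 39 counts 921, 3602 and 697. Under the WT label Cfb had 0 and 1 counts on day 0, then 9, 8 and 1654 on day 39. All 3 libraries labelled KO day 39 were high, whereas only 1 of 3 labelled WT day 39 was. KO day 39 averaged 384 CPM ± 285 (SD, n = 3), WT day 39 122 ± 208 (n = 3), KO day 0 90.7 ± 110 (n = 3) and WT day 0 0.118 ± 0.167 (n = 2). Over both labels, day 39 was 4.64-fold above day 0, which did not pass in edgeR (adjusted p = 0.264). At day 39 the KO to WT ratio of 3.14 did not pass either (edgeR adjusted p = 0.982). Cfb was ordered across the 11 libraries more like C3 (Spearman rho 0.771) than like C4b (0.624). RefSeq lists Mir6972 within Cfb, so its count is uncertain to that extent.

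Cfp encodes properdin, which stabilises the C3 convertase of the alternative pathway. Its counts were 507, 0 and 275 for KO at day 0, 1735 and 3 for WT at day 0, 1686, 5 and 8 for KO at day 39, and 8, 107 and 2739 for WT at day 39. Each group had a high and a near-empty library, and all groups overlapped. Group means ran from 33.2 CPM ± 42.8 (SD, n = 3) in KO day 0 to 207 ± 340 (n = 3) in WT day 39, and the lowest edgeR adjusted p over the 6 comparisons was 0.860.

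C3ar1, the receptor for C3a, was high in all libraries of KO day 0 and variable elsewhere. The KO libraries had 3459, 3501 and 3282 C3ar1 counts at day 0 but 2, 1342 and 1436 at day 39. The WT libraries had 4505 and 1 at day 0 and 84, 1089 and 118 at day 39. In descending order, KO day 0 averaged 407 CPM ± 175 (SD, n = 3), WT day 0 403 ± 569 (n = 2), KO day 39 226 ± 209 (n = 3) and WT day 39 83.9 ± 101 (n = 3). Neighbours in that order overlapped. Day 39 was at a ratio of 0.383 to day 0, the opposite direction to C3, and did not pass (edgeR adjusted p = 0.708).

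C5ar1, the receptor for C5a, was listed at 0 in whole groups. The KO libraries had 2628, 1674 and 864 C5ar1 counts at day 0 and 0 in each at day 39. The WT libraries had 0 in each at day 0 and 544, 0 and 168 at day 39. All libraries labelled KO day 0 were therefore above all labelled WT day 0 and above all labelled KO day 39, while WT day 39 overlapped both empty groups. KO day 0 averaged 231 CPM ± 183 (SD, n = 3), a level at least 372-fold higher than the WT day 0 floor (edgeR adjusted p = 0.381) and at least 311-fold higher than the KO day 39 floor (edgeR adjusted p = 0.273 for time). WT day 39, at 67.3 CPM ± 86.7 (n = 3), was at least 90.4-fold above the KO day 39 floor (edgeR adjusted p = 0.491). The time courses of the labels thus ran in opposite directions, but the test of that difference did not pass in edgeR (adjusted p = 0.324). DESeq2 called it (adjusted p = 2.7e-05). The empty libraries could have shown levels down to between 0.536 and 0.864 CPM in these 2 groups. These floors cover counting error only.

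The 4 neutrophil markers, of a cell rich in this receptor that the sort excluded by Ly6G, summed at day 0 to between 0.257 and 42.5 CPM for KO and between 1.18 and 85.2 CPM for WT. The sums at day 39 were between 0.593 and 236 CPM for KO and between 0 and 146 CPM for WT. In WT day 39 the highest sum was in replicate 3, made almost wholly by 666 counts of S100a8, whose C5ar1 count was 168. Replicate 1 of that group and replicate 1 of KO day 0 had more C5ar1, at 544 and 2628 counts, with neutrophil sums of 1.82 and 0.803 CPM. The part of neutrophil RNA in the C5ar1 values was not tested. The upstream window of C5ar1 is shown because C5ar1 was at 0 in every library of 2 groups. It is from RefSeq, GRCm38.p6, minus strand, chr7:16259339-16259588, with ACTTCCT, the ETS-type motif of the C1q windows on the opposite strand, in capitals.
C5ar1: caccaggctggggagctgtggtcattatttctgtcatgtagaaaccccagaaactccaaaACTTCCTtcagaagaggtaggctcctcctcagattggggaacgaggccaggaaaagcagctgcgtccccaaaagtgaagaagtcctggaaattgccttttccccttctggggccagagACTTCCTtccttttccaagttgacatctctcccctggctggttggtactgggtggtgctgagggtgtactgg
It held 2 matches, at 190 to 184 and 72 to 66 bases before the annotated start.

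**Figure D4:**
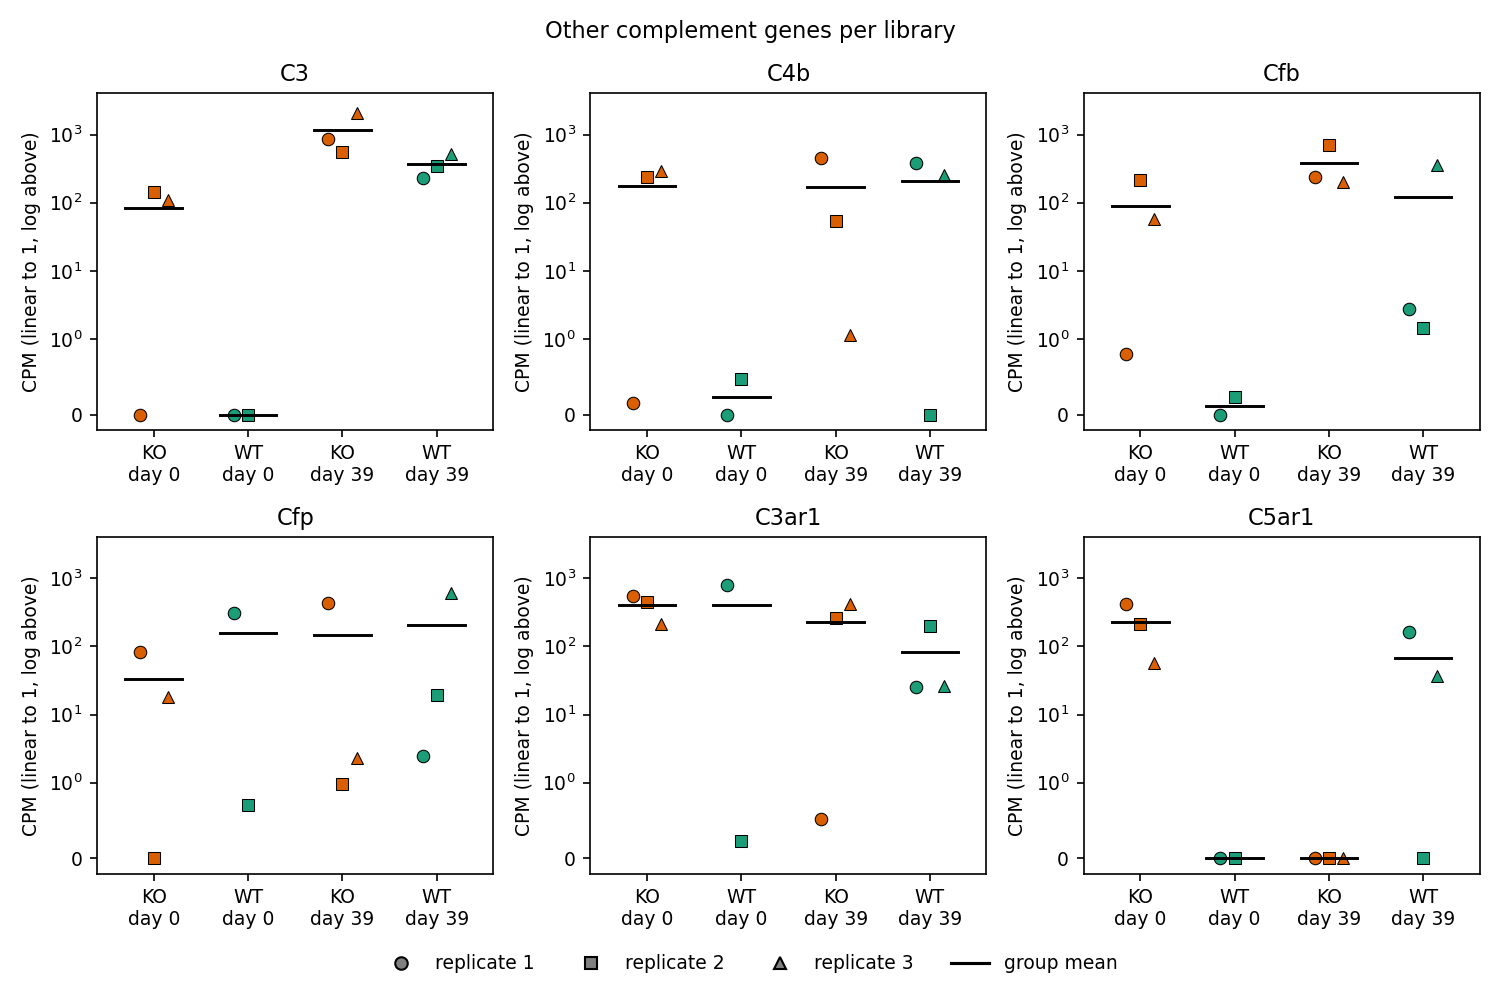
CPM of C3, C4b, Cfb, Cfp, C3ar1 and C5ar1 (linear to 1, log above) in each library by genotype label and day, with the group mean as a line. C3 is present in all 6 day 39 libraries and at 0 in 3 of 5 day 0 libraries, and C5ar1 is at 0 in every library of WT day 0 and KO day 39.

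All 9 members passed the filter on low counts, which some did through high libraries of 1 group. Between genotype labels at day 0, edgeR called 0 of 9 members and 0.0143% of tested genes. At an unadjusted p under 0.05 were C3 and 7.99% of tested genes, and DESeq2 called 4 members (C3, C4b, C5ar1 and Cfb, all higher in KO) and 17.9% of tested genes. C5ar1 and Cfb were higher in KO without overlap, as were 6.73% of tested genes; for Cfb the lowest KO library had 5 counts and the highest WT library 1. At day 39, edgeR called 0 of 9 members and 0.0286% of tested genes, with C5ar1 and 7.28% of tested genes at an unadjusted p under 0.05. DESeq2 called that gene, lower in KO, and 8.37% of tested genes. C1qc and C3 were higher in KO without overlap, as were 3.41% of tested genes. The median log2 fold change of the 9 members was 0.52 at day 0 and -0.32 at day 39, against 1.08 and 0 over all tested genes.

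Over time in libraries labelled WT, edgeR called 0 of 9 members and 0.0143% of tested genes, with C3 and 6.68% of tested genes at an unadjusted p under 0.05. DESeq2 called C3, C4b, C5ar1 and Cfb higher at day 39, and 16.9% of tested genes. C3 and Cfb were higher without overlap, as were 12.7% of tested genes, so the count of members is read against a background in which many genes had that pattern. In libraries labelled KO, edgeR called 0 of 9 members and 0.157% of tested genes, with C5ar1 and 18.2% of tested genes at an unadjusted p under 0.05, and DESeq2 called C5ar1 lower, and 16.4% of tested genes. C3 was higher without overlap, as were 8.07% of tested genes, and C5ar1 lower, as were 3.21%. The median of the members was 0.42 in WT and -0.03 in KO, against 1.64 and 0 over all tested genes. Placing genes of empty groups at their lower bounds left the members' medians where they were in these 4 comparisons. In the test of whether the genotype difference changed with the day, edgeR called 0 of 9 members and 0% of tested genes, with C3, C5ar1 and 14.4% of tested genes at an unadjusted p under 0.05, while DESeq2 called C5ar1 and 13.4% of tested genes. These comparisons share libraries and are not independent of each other. DESeq2 gave no adjusted p for Cfp.

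Another 44 complement genes, listed for their place in the pathway, mostly had no count or patchy counts. A count of 0 is not read as silence, since the macrophage marker Mertk also had none in any library. Of the 44 genes, 19 had no count in any library, 22 had more than 3 counts in some library and 18 were tested. In 108 tests over 6 comparisons edgeR called 0 in either direction, with adjusted p from 0.192 to 1 and 8 unadjusted p under 0.05. DESeq2 called 19. These are 7.41% of the tests at an unadjusted p under 0.05 and 17.6% by DESeq2, against 6.68% to 19.2% and 8.37% to 17.9% over all tested genes in the 6 comparisons. In each comparison 5 or 6 of the 18 tests had no DESeq2 adjusted p; these shares and those over all tested genes count such tests as not called. The 6 with the highest mean CPM were Cd93, Itgam, Serping1, Cfd, Itgb2 and Itgax. Cd93, a lectin-like receptor first described as binding C1q, was the only one of the 44 with more than 3 counts in all 11 libraries, between 461 and 5806. It averaged 299 CPM ± 108 (SD, n = 3) for KO and 501 ± 247 (n = 2) for WT at day 0, and 232 ± 162 (n = 3) for KO and 367 ± 110 (n = 3) for WT at day 39. The integrin chains of complement receptors 3 and 4, Itgam, Itgax and Itgb2, had more than 3 counts in 8, 6 and 7 libraries. Serping1, the inhibitor of activated C1, averaged 93.0 CPM ± 161 (SD, n = 3) for KO and 503 ± 85.0 (n = 2) for WT at day 0, with an edgeR adjusted p of 0.783, and 194 ± 169 (n = 3) and 80.5 ± 80.7 (n = 3) at day 39. Cfd, the protease that cleaves factor B, was at 408 CPM ± 591 (n = 3) in KO day 0, where the 3 libraries had 1, 8446 and 2105 counts, and at 0.470 ± 0.605 (n = 3) in KO day 39, with overlap and an edgeR adjusted p of 0.273. For WT it was at 79.7 ± 112 (n = 2) on day 0 and 131 ± 225 (n = 3) on day 39.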

How the data were processed

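Intestinal macrophages were profiled with a Lexogen 3′ tag kit from Trizol RNA, per the labels' protocols. For each of 11 libraries the authors deposited a table of whole-number read counts by gene symbol. The submitters' processing notes name Bowtie2, edgeR and the build hg19, a human build although the symbols are mouse. Versions, annotation, strand setting and use of molecular identifiers are not given in the sources used here, and the files carry no coordinates. Groups and replicate numbers came from the sample titles. File names differ in places, giving day 35 for day 39 and number 3 for WT day 0 replicate 2.

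The counts went into edgeR 4.0.16 (R 4.3.3) with filterByExpr (6987 of 23282 entries tested), TMM scaling, robust dispersions, and a quasi-likelihood fit with 1 coefficient per group to all 11 libraries. The 6 contrasts were tested two-sided, with Benjamini-Hochberg adjustment over all tested genes at 0.05. The standard error of a log2 fold change is its size over the root of F. Folds against a group at or under 3 counts in each library are lower bounds against that floor, taken as the mean floor of the group's libraries. Alternatives were the DESeq2 1.42.0 test, its size factors, raw library size, testing all genes, a replicate block and leaving out each library. All 9 members are named, with the 6 other pathway genes highest in CPM and the 5 genes most like C1q. C4a, Ptger4 and cell type markers are named as checks, and individual markers were chosen after their values were seen. Members, lists and motifs were chosen with earlier results of these data, or the sequences, known. Promoter sequences and gene neighbours are from RefSeq GRCm38.p6.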

Additional observations from a re-analysis of the deposited data

How the results depend on the processing

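The counts of called members moved with the test. With DESeq2 they were 4 for genotype at day 0, 1 for genotype at day 39, 4 for time in WT, 1 for time in KO, 2 for day 39 against day 0 (C3 and Cfb) and 1 for the interaction, against 0, 0, 0, 0, 1 and 0 in edgeR. DESeq2 called 17.9%, 8.37%, 16.9%, 16.4%, 17.4% and 13.4% of all tested genes in the same order. For day 39 against day 0 the count was 0 with library size only, with no filter (C3 adjusted p = 0.180) and with the replicate block (C3 adjusted p = 0.0675), and 0 to 1 when each library was left out, C3 being called in 6 of 11 such fits. The share of all tested genes called was 0.129% with library size only, 0.0157% with no filter, 0.1% with the block and 0.0101% to 0.934% when each library was left out. In those fits its adjusted p ran from 0.00882 to 0.592. The log2 fold change of C3 in that comparison stayed between 8.29 and 9.18 over the 16 alternatives; WT day 0 is empty, so its size depends on the prior count. Leaving out each library, the log2 difference of C1qa ran from -1.21 to 0.88 for genotype at day 0 and from -1.60 to 0.65 for time in KO. The reversed values, -1.21 and 0.65, came without KO day 0 replicate 1. Of 864 refitted log2 fold changes of members, 69 changed sign, 23 of them of C1qb and none of C3, Cfb or C5ar1; none belonged to a called difference. With the sum of all counts as library size, C3 still did not overlap between the days, at most 133 CPM against at least 190 CPM. Over 15 pairs of libraries of equal replicate number, deviations from group means correlated at -0.01 to 0.07, and 0 pairs were over 0.1. Deviations within a group of 2 or 3 libraries are tied to each other, so this check cannot exclude that replicate numbers pair libraries. The block and this check use the number 2 of the title for the WT day 0 library numbered 3 in its file name; the other number was not tried. Depth sets a floor of 0.196 to 0.911 CPM for 3 counts.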
